A study of Mus musculus with 21 samples.

Results

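B lineage transcription factors are the nuclear proteins that set up and keep the gene expression program of developing B cells. The 10 genes described are Pax5, Ebf1, Tcf3, Ikzf1, Ikzf3, Foxo1, Bach2, Lef1, Irf4 and Spib, and they were chosen by symbol, as known regulators of the lineage, with earlier results of these data known. They are 10 of the 24421 genes in the RNA-seq tables, and all 10 passed the filter on low counts, as did 12786 genes in all. The study transduced primary bone marrow B cell precursors of C57BL/6 mice, cultured in 10 ng/ml of the growth factor IL-7, with the retroviral vector MIGR1. The vector was empty (EV) or carried human BCR-ABL1, the fusion kinase of Philadelphia chromosome leukemia, or mouse C-MYC, a transcription factor that drives cell growth. All mice, the EV mice included, were 53BP1-/-, lacking a DNA repair protein by genotype, and no wild-type RNA-seq library was used here. RNA was taken from the cultures 7 to 9 days after transduction, in 2 libraries per condition and 6 in all. Each library was made from a bulk culture, and the ages of the mice are not given in the sources used here.

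B cell development depends on a hierarchy of such factors. Tcf3, which encodes the E proteins E12 and E47, and Foxo1 act early and help to switch on Ebf1, and Ebf1 and Pax5 then activate B cell genes and repress those of other lineages. Ikaros family members, Irf4, Spib, Bach2 and Lef1 act at the pre-B cell stage, when signals of the IL-7 receptor and the pre-B cell receptor decide between proliferation and differentiation. Several of these genes, PAX5, EBF1 and IKZF1 among them, are recurrently deleted or mutated in human B cell leukemia.

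Library totals lay between 20687092 and 24095955 counts. Expression is given as counts per 1000000 counts of a library (CPM) after TMM scaling of library size, and a gene counted as higher or lower where edgeR's quasi-likelihood test gave a Benjamini-Hochberg adjusted p under 0.05 over all 12786 genes. Myc, the gene in the C-MYC vector, was 9.36-fold higher in C-MYC than in EV cells. Trp53bp1, which is disrupted in these mice, had between 15.7 and 30.2 CPM in the 6 libraries. The 7 B precursor markers used for this check were all detected, and their summed CPM (scaled by library total alone) lay between 4385 and 7715. Summed markers of most other cell types were higher in EV than in both BCR-ABL1 and C-MYC. Over 8 myeloid genes, the EV libraries had 772 and 1030 CPM, the BCR-ABL1 libraries 128 and 158, and the C-MYC libraries 192 and 331. Over 6 T and NK cell genes, the EV libraries had 102 and 79.3 CPM and the other 4 libraries between 2.95 and 7.89. Over 5 stromal genes, the EV libraries had 106 and 164 CPM and the other 4 between 1.69 and 5.98. Over 4 dendritic cell genes, the EV libraries had 60.2 and 42.7 CPM and the other 4 between 17.1 and 35.0. Of the tested genes, 7 of 8 myeloid, 6 of 6 T and NK, 4 of 4 stromal and 2 of 3 dendritic markers were lower in C-MYC than in EV, and in BCR-ABL1 these counts were 8, 6, 3 and 2. With the replicate number as a block in the fit, the counts in BCR-ABL1 were 8, 6, 4 and 3. Of the 7 B precursor markers, 5 were lower in C-MYC (6 with a replicate block) and 2 in BCR-ABL1 (4 with a replicate block). Of all genes tested, 24.5% were lower in C-MYC and 12.0% in BCR-ABL1. Of 3 erythroid genes, Hba-a1 and Hbb-bs had 0 counts in all libraries and only Alas2 was detected. Each change of a factor gene against EV was measured beside this shift, and its part in those changes was not tested. In bulk RNA, fewer cells of a type and less RNA per cell cannot be told apart. The labels do not say that replicates came from separate animals or cultures and the methods speak of duplicate experiments, so p-values measure the spread between these libraries.

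All 10 genes were expressed in every condition, at levels that spanned about an order of magnitude. Because longer genes collect more reads, levels of different genes were compared as CPM per kilobase of annotated exon, scaled by library total alone. In EV, Spib, an ETS family factor related to PU.1, had the highest level per kilobase (216 ± 12.1, SD, n = 2), followed by Tcf3 (182 ± 13.8) and Ikzf1, which encodes Ikaros (78.4 ± 6.70). The libraries of these 3 genes did not overlap with those of the next gene in the order. Ebf1 (59.0), Ikzf3 (56.5), Irf4 (54.9), Foxo1 (43.9) and Lef1 (36.8) followed, and neighbors among these 5 overlapped in their libraries. Bach2 (28.3 ± 9.60) and Pax5 (20.5 ± 6.39) had the lowest levels and overlapped with each other.

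The order at the top differed in BCR-ABL1 and C-MYC cells. In BCR-ABL1, Tcf3 came first (163 ± 7.29 per kilobase) and Spib second (115 ± 3.13), with no overlap between their libraries. In C-MYC, Tcf3 (156 ± 15.9) again stood above Spib (77.0 ± 11.2) without overlap. As a share of the summed level of the 10 genes, Tcf3 made up 23.4% in EV cells, 25.9% in BCR-ABL1 cells and 33.4% in C-MYC cells. Spib made up 27.9%, 18.2% and 16.5% of that sum. Ikzf1, at 81.4 in BCR-ABL1 cells and 60.9 in C-MYC cells, had the third highest mean in each condition, but its libraries overlapped with those of Irf4, the next gene, in both. The lowest places in C-MYC were those of Pax5 (10.7 ± 0.73) and Bach2 (10.5 ± 1.53), which overlapped.

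The deposited FPKM values, the second measure per length, gave a different order for some genes. Bach2 had the highest mean FPKM of the 10 in EV (303 ± 100.1, SD, n = 2) but the ninth level per kilobase. Relative to the median gene, its FPKM was 6.80-fold higher than its level per kilobase, and Pax5 stood at 3.29-fold. Ikzf1 (0.37-fold), Spib (0.39-fold) and Lef1 (0.44-fold) stood lower by FPKM. Bach2 was the only one of the 10 that was over 4-fold off, as were 9.28% of the 10261 genes that had an annotated exon length and averaged 50 counts or more. Tcf3 (1.02-fold) and Ebf1 (1.11-fold) gave nearly the same relative level by both measures. Spib held rank 3 of 10 by FPKM in EV and rank 8 in the other 2 conditions. Ikzf1 held rank 9 by FPKM in all 3 conditions. The places of Bach2, Pax5, Ikzf1 and Spib in the order, among others, thus depended on the measure, while Tcf3 was first or second by both.

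**Figure D1:**
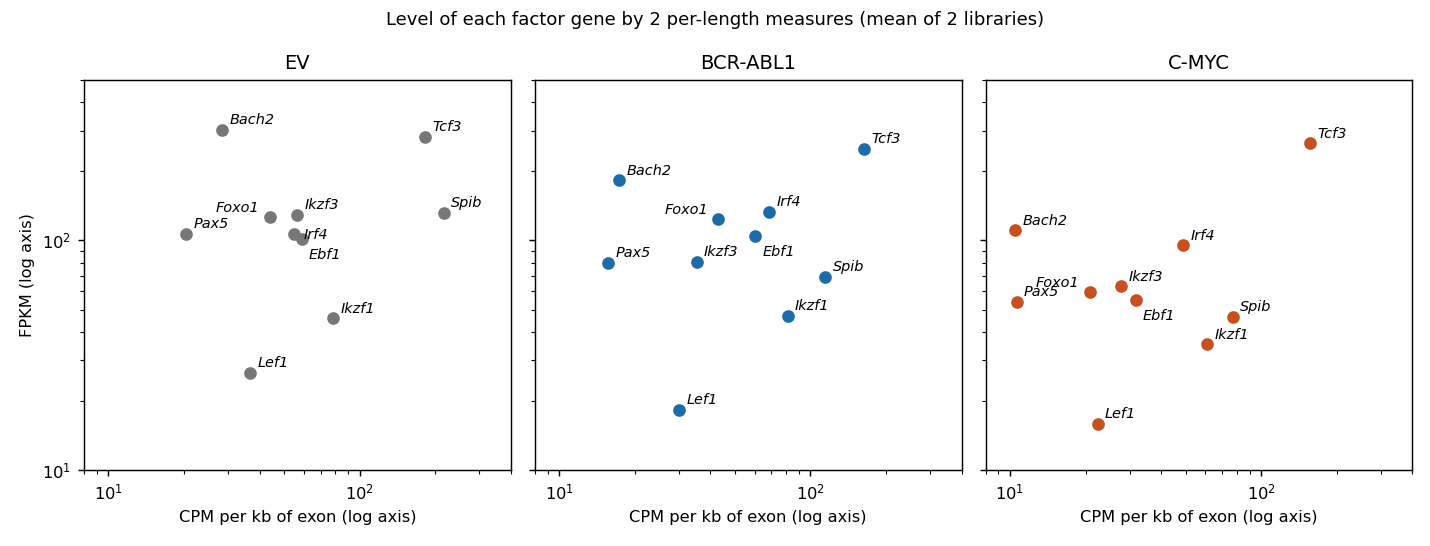
Mean level of each factor gene over 2 libraries, with CPM per kilobase of exon on the horizontal axis and FPKM on the vertical axis, both logarithmic, in each condition. Tcf3 is high by both measures, whereas Bach2 is second lowest or lowest per kilobase and among the 2 highest by FPKM.

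The 10 genes lie on 6 chromosomes of GRCm38, with Pax5 and Bach2 on chromosome 4, Ebf1, Ikzf1 and Ikzf3 on chromosome 11, and Foxo1 and Lef1 on chromosome 3. Their spans run from 6079 bases for Spib (chr7:44525993-44532071, minus strand) to 390775 bases for Ebf1 (chr11:44617317-45008091, plus strand). Pax5 and Bach2 each share exon sequence with a gene on the opposite strand that is also in the tables, 5730488B01Rik and Bach2os. How the counting treated strand is not given in the sources used here, so reads of these pairs could not be told apart and the values of Pax5 and Bach2 are uncertain to that extent. Pax5, Foxo1 and Lef1 also share exon sequence with the antisense genes Gm12462, Gm20402 and Gm43352, which are not in the tables used here, and their counts could likewise hold antisense reads.

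RefSeq start sites of GRCm38.p6 gave 14 promoters for 9 of the 10 genes, each of 250 bases before and 50 bases after the start, and Ikzf3 had no entry. They were searched on both strands for 8 motifs. CACGTG, the E-box that MYC and MAX bind, was in 1 of the 14, and it occurs in 7.15% of all 32851 promoters and in 9.87% of the 12357 promoters of genes tested. The Ikaros motif TGGGAA was in 4 of 14 promoters (25.6% of all promoters), the SPIB and PU.1 motif GAGGAA in 3 (28.3%), and the E protein motif CAGGTG in 1 (20.2%). The promoters with the Ikaros motif belong to only 2 genes, Ebf1 and Lef1. Lef1 promoters 1 and 2 overlap, and their Ikaros matches are the same site counted in both. The EBF motif TCCCNNGG was in 1 promoter (22.6% of all promoters), where its 2 matches overlap on opposite strands. TGTTTAC for FOXO, CTTTGAT for LEF and TCF, and TGAGTCA for BACH and AP-1 matched none of the 14, and they occur in 3.65%, 3.73% and 5.20% of all promoters. A match describes letters in this window and not a bound site. The promoter of Spib, the gene with the widest change, is shown first and holds none of the 8 motifs. It is followed by those of Foxo1, the only one with EBF matches, Ebf1 (promoter 2 of 2), with matches for Ikaros and for SPIB and PU.1, and Lef1 (promoter 4 of 4), the only one with CACGTG. They lie at chr7:44532022-44532321 (minus strand), chr3:52268087-52268386, chr11:44619978-44620277 and chr3:131156044-131156343 (plus strand), are written 5′ to 3′ along the gene, and have motif matches of either strand in capitals.
Spib promoter: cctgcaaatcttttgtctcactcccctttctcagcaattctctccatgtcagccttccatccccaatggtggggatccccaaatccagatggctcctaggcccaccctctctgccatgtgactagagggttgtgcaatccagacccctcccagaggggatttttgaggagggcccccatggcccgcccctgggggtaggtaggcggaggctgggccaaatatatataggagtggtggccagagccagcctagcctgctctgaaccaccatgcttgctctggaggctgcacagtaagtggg
Foxo1 promoter: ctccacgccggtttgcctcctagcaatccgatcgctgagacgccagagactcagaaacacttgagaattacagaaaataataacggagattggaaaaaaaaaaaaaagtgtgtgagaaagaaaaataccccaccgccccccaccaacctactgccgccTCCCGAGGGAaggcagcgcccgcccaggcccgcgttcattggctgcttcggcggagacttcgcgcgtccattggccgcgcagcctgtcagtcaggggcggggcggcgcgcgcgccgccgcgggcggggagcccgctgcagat
Ebf1 promoter 2: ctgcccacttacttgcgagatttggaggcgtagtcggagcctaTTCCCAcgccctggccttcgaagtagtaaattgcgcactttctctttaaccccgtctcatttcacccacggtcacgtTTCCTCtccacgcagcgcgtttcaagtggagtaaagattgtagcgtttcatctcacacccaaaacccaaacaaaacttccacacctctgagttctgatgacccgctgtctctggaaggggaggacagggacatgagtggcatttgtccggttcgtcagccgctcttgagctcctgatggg
Lef1 promoter 4: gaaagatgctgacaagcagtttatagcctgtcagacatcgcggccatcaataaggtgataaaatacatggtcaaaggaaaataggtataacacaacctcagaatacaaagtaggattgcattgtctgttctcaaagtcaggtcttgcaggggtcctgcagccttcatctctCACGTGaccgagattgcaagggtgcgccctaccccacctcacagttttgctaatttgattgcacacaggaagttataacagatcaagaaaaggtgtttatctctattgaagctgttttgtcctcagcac
The capitals in Foxo1 begin 92 bases before the start site. Those in Ebf1 begin 207 bases (Ikaros) and 130 bases (SPIB and PU.1) before it, both matching the minus strand, and the CACGTG in Lef1 begins 79 bases before that start. The Irf4 promoter had the only other match outside Lef1, a GAGGAA on the minus strand 19 bases before the start site.

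The comparison of C-MYC with EV asks how expression of the B lineage factors differed after transduction with C-MYC. Of the 10 genes, 7 were lower in C-MYC cells and 0 were higher, counts that were the same at an unadjusted p under 0.05 in edgeR and at adjusted p with DESeq2 and with limma on log2(FPKM + 1). The 7 were Spib, Bach2, Foxo1, Ikzf3, Pax5, Ebf1 and Lef1, while Tcf3, Ikzf1 and Irf4 did not pass the test. Among all genes tested, 24.5% were lower, 18.6% were higher and 43.1% were called in either direction. The median log2 fold change of the 10 genes was -0.80, beside -0.08 for all genes tested. For these 7 genes, both C-MYC libraries lay below both EV libraries, as they did for 39.1% of all genes, and no factor gene had both above (31.5% of all genes).

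**Figure D2:**
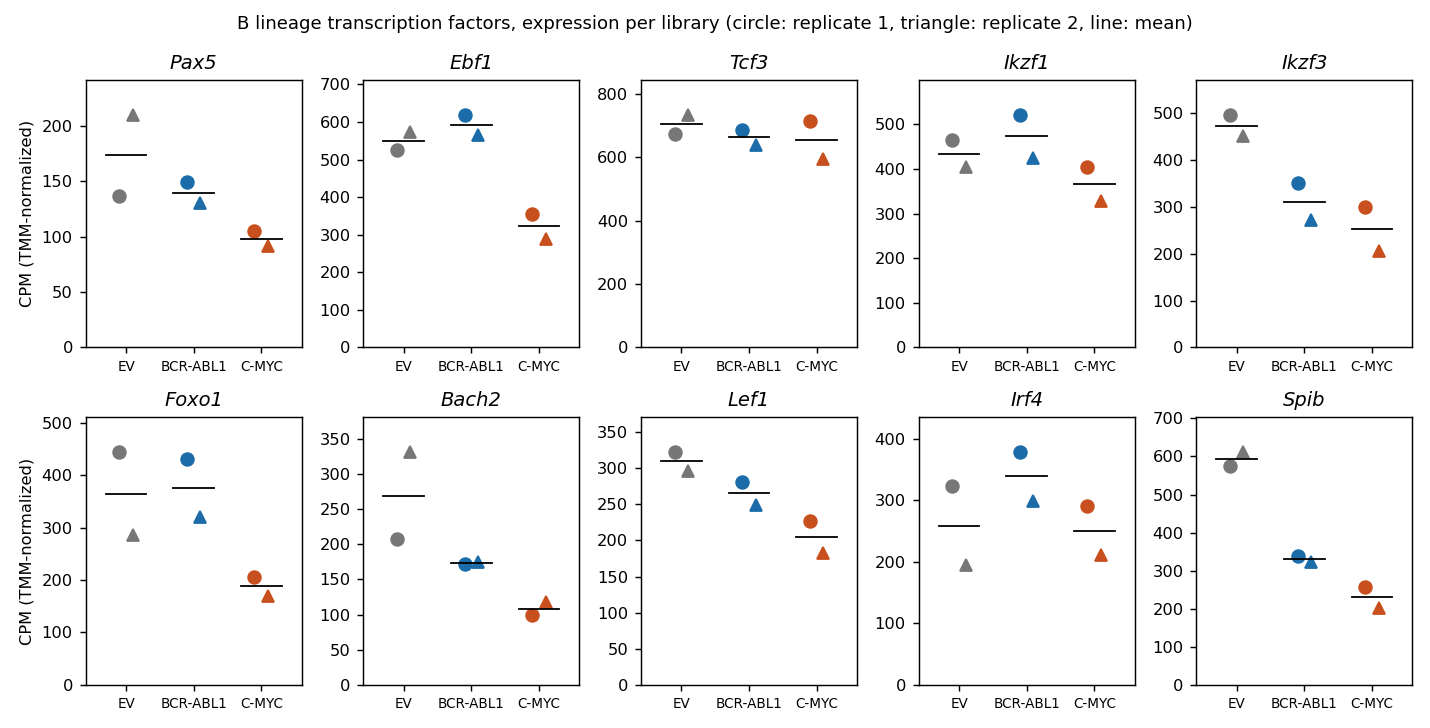
TMM-normalized CPM (vertical axis, from 0) of each of the 10 factor genes in the 2 EV, 2 BCR-ABL1 and 2 C-MYC libraries, with circles for replicate 1, triangles for replicate 2 and a line at the mean of each condition. Spib is lower in BCR-ABL1 and lowest in C-MYC, Ebf1 and Foxo1 are low in C-MYC only, and the EV libraries of Bach2, Foxo1, Irf4 and Pax5 lie far apart.

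Among the factors that define the lineage, Ebf1, which acts upstream of and together with Pax5, had 527 and 575 CPM in EV and 356 and 288 CPM in C-MYC. Both C-MYC libraries were well below EV, and the log2 fold change was -0.77 (SE 0.13, adjusted p = 0.00241, edgeR). Pax5, which commits cells to the B lineage, had 136 and 209.8 CPM in EV and 105 and 91.6 CPM in C-MYC. The EV libraries of Pax5 differed more from each other than EV replicate 1 did from C-MYC, with a log2 fold change of -0.82 (SE 0.20, adjusted p = 0.0128, edgeR). Foxo1, a forkhead factor that is kept out of the nucleus by PI3K and AKT signaling and that activates the Rag genes, had 444 and 286 CPM in EV and 206 and 169.9 CPM in C-MYC. Its level was 1.94-fold lower in C-MYC, without overlap and with a wide spread in EV (log2 fold change -0.96, SE 0.23, adjusted p = 0.0115, edgeR). Tcf3, by contrast, had 673 and 735 CPM in EV and 715 and 596 CPM in C-MYC. Its libraries overlapped, and the log2 fold change of -0.10 had a 95% interval from -0.37 to 0.17.

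Among the Ikaros family, Ikzf3, which encodes Aiolos and rises as pre-B cells differentiate, had 497 and 451 CPM in EV and 300.3 and 205 CPM in C-MYC. It was lower in C-MYC without overlap (log2 fold change -0.91, SE 0.19, adjusted p = 0.0076, edgeR). Ikzf1, which restrains pre-B cell proliferation, had 464 and 403 CPM in EV and 404 and 328 CPM in C-MYC. EV replicate 2 and C-MYC replicate 1 of Ikzf1 were about equal, and its log2 fold change of -0.24 (95% interval -0.59 to 0.10) did not pass the test.

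Spib and Bach2 had the widest differences. Spib had 576 and 612 CPM in EV and 258 and 202 CPM in C-MYC, a 2.58-fold lower level. The EV replicates lay close together and the C-MYC replicates further apart, without overlap between the conditions. The log2 fold change was -1.37 (SE 0.13, adjusted p = 0.000385, edgeR). Bach2, a repressor that holds back the plasma cell program and supports the pre-B cell checkpoint, had 207 and 331 CPM in EV and 99.2 and 118 CPM in C-MYC. It was 2.48-fold lower, without overlap although EV replicate 2 stood well above EV replicate 1 (log2 fold change -1.31, SE 0.21, adjusted p = 0.00219, edgeR). Lef1, a nuclear partner of β-catenin that supports pro-B cell survival and proliferation, had 323 and 297 CPM in EV and 226 and 183 CPM in C-MYC. It was lower without overlap (log2 fold change -0.60, SE 0.13, adjusted p = 0.00841, edgeR). Irf4, which acts below the pre-B cell receptor, had 323 and 194 CPM in EV and 289.8 and 211 CPM in C-MYC. The C-MYC libraries of Irf4 lay between the EV libraries, and the 95% interval of its log2 fold change ran from -0.63 to 0.54.

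Leaving out C-MYC replicate 2 left 4 of the 10 genes lower (Ebf1, Ikzf3, Bach2 and Spib), with adjusted p of 0.0897 for Pax5, 0.0836 for Foxo1 and 0.0565 for Lef1 (edgeR), and leaving out C-MYC replicate 1 moved Pax5 to an adjusted p of 0.0514. With the replicate number as a block in the fit, the same 7 genes passed and Ikzf1 was also lower (log2 fold change -0.25, adjusted p = 0.0337, edgeR).

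The comparison of BCR-ABL1 with EV asks the same of the fusion kinase. Of the 10 genes, 1 was lower in BCR-ABL1 cells and 0 were higher. At an unadjusted p under 0.05 in edgeR 3 were lower and 0 higher, with DESeq2 3 and 0, and with limma on log2(FPKM + 1) 1 and 0. With a replicate block, 4 passed, with Spib, Ikzf3 (adjusted p = 0.00478) and Bach2 (0.0195) lower and Irf4 higher (log2 fold change 0.42, adjusted p = 0.0248, edgeR). Among all genes tested, 12.0% were lower, 5.08% were higher and 17.0% were called in either direction. The median log2 fold change of the 10 genes was -0.15, beside 0.00 for all genes. Both BCR-ABL1 libraries lay below both EV libraries for 4 of the 10 genes, as they did for 29.7% of all genes, and above them for none (29.2% of all genes).

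Spib was the gene that passed. It had 339 and 323 CPM in BCR-ABL1 against 576 and 612 CPM in EV, with close replicates in both. It was 1.80-fold lower (log2 fold change -0.84, SE 0.13, adjusted p = 0.00498, edgeR). Without BCR-ABL1 replicate 2, the adjusted p of Spib was 0.053 (edgeR), with a log2 fold change of -0.81.

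Ikzf3, Bach2 and Lef1 were the other genes without overlap. Ikzf3 had 351 and 272 CPM in BCR-ABL1 and a log2 fold change against EV of -0.61 (SE 0.19, adjusted p = 0.071, edgeR). Bach2 had 172 and 175 CPM in BCR-ABL1, a narrow pair below the wide EV pair, with a log2 fold change of -0.64 (SE 0.21, adjusted p = 0.0741, edgeR). Ikzf3 and Bach2 passed under some alternatives, among them DESeq2 (adjusted p = 0.0373 and 0.0346), and without C-MYC replicate 1 or 2, which share the fit but are on neither side of this contrast, Ikzf3 passed (adjusted p = 0.0421 and 0.0415, edgeR). Lef1 had 281 and 249.6 CPM in BCR-ABL1 (log2 fold change -0.22, 95% interval -0.53 to 0.08).

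The remaining 6 genes overlapped with EV. Ebf1 had 619.7 and 564 CPM in BCR-ABL1, and its log2 fold change of 0.10 had a 95% interval from -0.19 to 0.39. Foxo1 had 430.3 and 321 CPM, between its 2 EV libraries, with an interval from -0.48 to 0.56. Pax5 had 149 and 130.1 CPM, within or just below the EV range, with an interval from -0.77 to 0.15. The 522 and 424 CPM of Ikzf1 gave an interval from -0.22 to 0.47, and the 687 and 639 CPM of Tcf3 an interval from -0.36 to 0.18. Irf4 had 378 and 299 CPM, and its log2 fold change of 0.39 was the highest of the 10, with an interval from -0.19 to 0.97. Without EV replicate 1, 4 genes passed, with Pax5 (adjusted p = 0.018), Bach2 and Spib lower and Irf4 higher (adjusted p = 0.0299, log2 fold change 0.81, edgeR). Without EV replicate 2, Spib alone passed, and the log2 fold changes were 0.07 for Irf4 (adjusted p = 0.835), -0.25 for Bach2 (adjusted p = 0.2) and 0.036 for Pax5 (adjusted p = 0.883, edgeR).

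**Figure D3:**
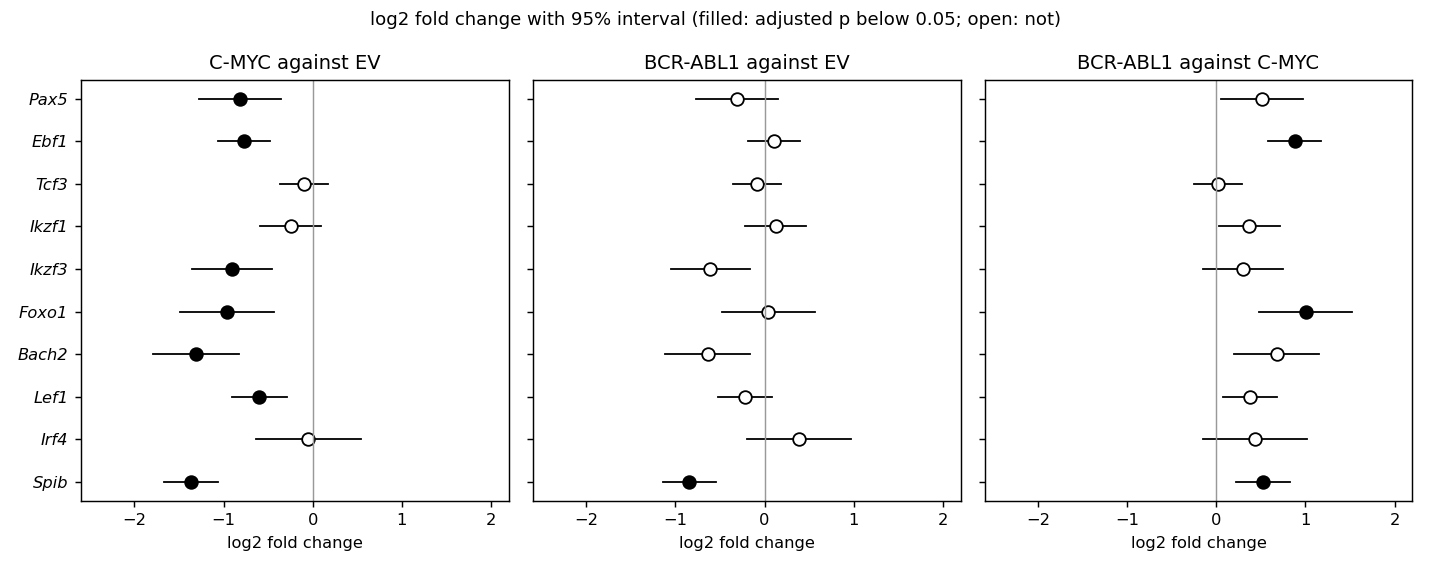
The log2 fold change of each factor gene (horizontal axis) in the 3 comparisons, with lines for the 95% interval and filled points where the adjusted p of edgeR's quasi-likelihood test was below 0.05. In C-MYC against EV 7 genes are filled and below 0, in BCR-ABL1 against EV only Spib is filled, and in BCR-ABL1 against C-MYC all 10 points are above 0 and 3 are filled.

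The direct comparison of BCR-ABL1 with C-MYC tests whether the differences from EV were unequal, since both were measured against the same EV libraries. Of the 10 genes, 3 were higher in BCR-ABL1 cells and 0 were lower. At an unadjusted p under 0.05 in edgeR 7 were higher and 0 lower, with DESeq2 4 and 0, and with limma on log2(FPKM + 1) 3 and 0. With a replicate block, 7 were higher, as Ikzf1 (adjusted p = 0.0106), Bach2 (0.00876), Lef1 (0.014) and Irf4 (0.0155, edgeR) joined the 3. Among all genes tested, 11.9% were higher, 11.5% were lower and 23.4% were called in either direction. The median log2 fold change of the 10 genes was 0.47, beside 0.00 for all genes. Both BCR-ABL1 libraries lay above both C-MYC libraries for 8 of the 10 genes, as they did for 35.4% of all genes, and below them for none (34.5% of all genes).

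The gene that held under every alternative was Ebf1, at 619.7 and 564 CPM in BCR-ABL1 and 356 and 288 CPM in C-MYC. It was 1.84-fold higher in BCR-ABL1 (log2 fold change 0.88, SE 0.13, adjusted p = 0.0038, edgeR), and the adjusted p under 14 alternatives stayed at or below 0.0405. Foxo1 was at 430.3 and 321 CPM in BCR-ABL1 and 206 and 169.9 CPM in C-MYC (log2 fold change 1.00, SE 0.23, adjusted p = 0.0181, edgeR). Spib, lower than EV in both, was higher in BCR-ABL1 than in C-MYC by 0.52 on the log2 scale (SE 0.13, adjusted p = 0.0238, edgeR). Thus in the reported fit Spib was the only one of the 10 genes that passed in all 3 comparisons, with EV above BCR-ABL1 and BCR-ABL1 above C-MYC. Bach2 did so too with a replicate block, with DESeq2 and without the filter on low counts.

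Bach2 missed the threshold narrowly in this comparison, with a log2 fold change of 0.68 (SE 0.21, adjusted p = 0.0501, edgeR). Pax5 (0.51, 95% interval 0.05 to 0.97), Lef1 (0.37, 0.07 to 0.68) and Ikzf1 (0.37, 0.03 to 0.71) also had unadjusted intervals above 0 but did not pass after adjustment. The intervals of Irf4 (-0.15 to 1.02), Ikzf3 (-0.15 to 0.75) and Tcf3 (-0.25 to 0.29) included 0. Fitted with only the 4 libraries compared, Pax5, Bach2 and Lef1 passed (adjusted p = 0.00875, 0.0024 and 0.0423, edgeR). Ikzf1 did not pass in that fit (adjusted p = 0.0633, edgeR). The count of 3 depended on the libraries used. It was 1 without BCR-ABL1 replicate 1 or without C-MYC replicate 2, where only Ebf1 passed, 2 without BCR-ABL1 replicate 2 (Ebf1 and Foxo1) or without C-MYC replicate 1 (Ebf1 and Spib), and 6 without either EV replicate, where Pax5, Bach2 and Lef1 also passed.

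Relatives of the 10 factors were examined as a list of 19 family members, of which 14 passed the filter on low counts. Pax2, Pax8 and Ebf2, Ebf3 and Ebf4 did not pass it, so Pax5 and Ebf1 were the tested members of their groups. In C-MYC against EV, 7 of the 14 were lower and 0 were higher, beside 24.5% and 18.6% of all genes. DESeq2 called 7 lower, limma 5, and 8 had an unadjusted p under 0.05 in edgeR, each with 0 higher. In BCR-ABL1 against EV, 3 were lower and 1 was higher (12.0% and 5.08% of all genes), with DESeq2 3 and 1 and with limma 2 and 1. Between BCR-ABL1 and C-MYC 2 were higher and 1 was lower (11.9% and 11.5% of all genes), while DESeq2 called 2 and 0 and limma 1 and 0. With a replicate block, 10 were lower and 0 higher in C-MYC against EV (Tcf4, Foxo3 and Tcf7l2 added), 5 lower and 2 higher in BCR-ABL1 against EV (Foxo4 and Spi1 lower and Bach1 higher added), and 3 higher and 1 lower between them (Tcf7l2 added). The median log2 fold changes were -0.51, -0.10 and 0.26.

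In the TCF and LEF family, 2 relatives moved in opposite directions in BCR-ABL1. Tcf7l1, which represses Wnt target genes, had 9.43 and 7.94 CPM in BCR-ABL1 but 0.65 and 0.46 CPM in EV. It was 15.5-fold higher in BCR-ABL1 than in EV (log2 fold change 3.96, SE 0.32, adjusted p = 0.000605, edgeR). In C-MYC it had only 3 counts in each library, against 199 and 191 counts in BCR-ABL1. Tcf7, which encodes TCF1 and is best known in T cells, went the other way, with 51.8 and 33.9 CPM in EV cells, 11.9 and 9.93 with BCR-ABL1, and 8.83 and 7.01 with C-MYC. It was 3.92-fold lower with BCR-ABL1 and 5.41-fold lower in C-MYC than in EV, beside T and NK markers that were lower in both.

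Within the other families, Ikzf2, which encodes Helios, was lower than in EV with BCR-ABL1 (log2 fold change -3.12) and with C-MYC (-3.27). It had 5.05 and 4.26 CPM in EV and between 0.41 and 0.62 CPM in the other 4 libraries. Ikzf4 and Ikzf5 did not pass in any comparison. The calls that follow are those without a replicate block. Irf8, which acts with Irf4 in pre-B cells and is also abundant in myeloid and dendritic cells, had 698 and 432 CPM in EV and between 287 and 364 CPM in the other 4. It was lower in BCR-ABL1 (log2 fold change -0.95, SE 0.21) and in C-MYC (-0.78, SE 0.21), while Irf4 passed in neither without a replicate block. Spi1, which encodes PU.1 and is also a myeloid gene, was lower in C-MYC (log2 fold change -0.56, SE 0.16). Among the E proteins, Tcf12, which encodes HEB, was lower in C-MYC than in EV (-0.40, SE 0.11) and than in BCR-ABL1, whereas Tcf3 and Tcf4 passed in no comparison. Foxo4 was lower in C-MYC (-0.55, SE 0.17), Foxo3 did not pass (-0.47, 95% interval -0.98 to 0.04), and Bach1 did not pass in any comparison.

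Inhibitors of the factors and factors of other lineages formed a list of 14, with 13 tested. Of these, 7 were lower in C-MYC and 9 were lower in BCR-ABL1 than in EV, beside 24.5% and 12.0% of all genes. DESeq2 called 7 and 8 lower, limma 5 and 5, a replicate block 9 (Prdm1 and Bcl6 added) and 10 (Bcl6 added), and 9 and 10 had an unadjusted p under 0.05 in edgeR. By each of these 0 were higher, and the medians of the log2 fold changes were -1.26 and -2.40. The ID proteins, which bind E proteins such as those of Tcf3 and block their DNA binding, differed among themselves. Id2 had 31.5 and 30.8 CPM in EV cells, 5.36 and 6.44 with BCR-ABL1, and 8.46 and 17.0 with C-MYC. It was 5.27-fold lower with BCR-ABL1 and 2.45-fold lower with C-MYC, and BCR-ABL1 was below C-MYC (log2 fold change -1.11, SE 0.31, adjusted p = 0.0378, edgeR). Id1 was low everywhere, at most 3.93 CPM, and was lower in both conditions. Id3, which is induced by antigen receptor signaling, had between 77.0 and 109.7 CPM in the 6 libraries and did not pass in any comparison.

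**Figure D4:**
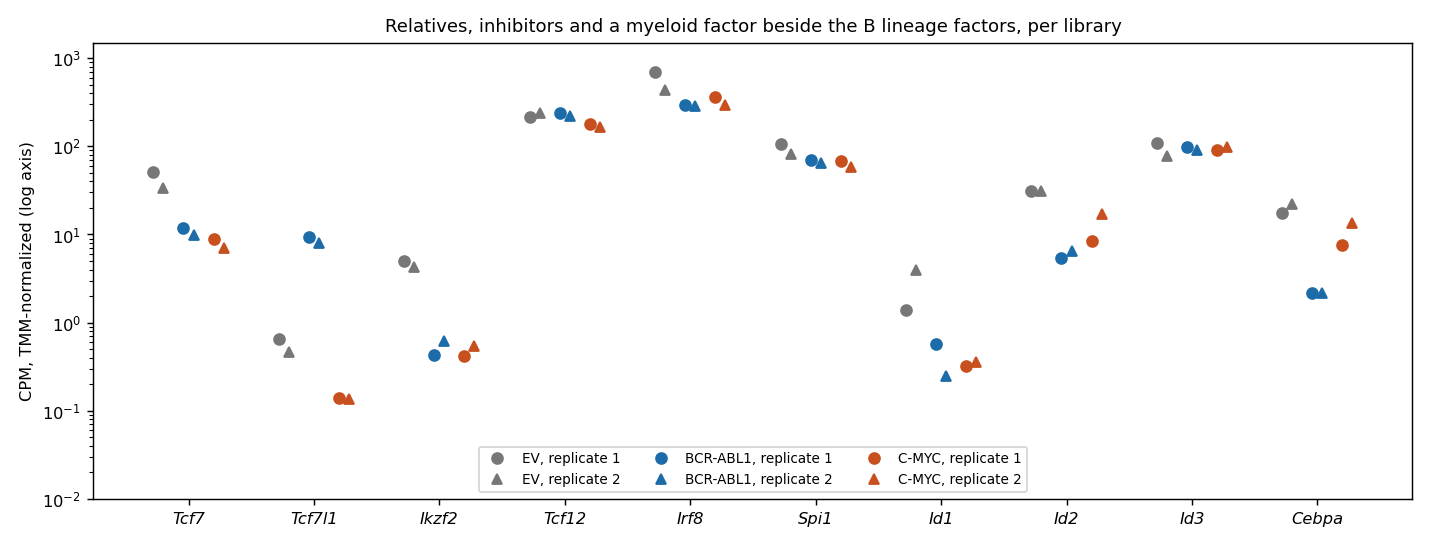
TMM-normalized CPM on a logarithmic axis of 6 relatives of the B lineage factors (Tcf7, Tcf7l1, Ikzf2, Tcf12, Irf8, Spi1), 3 ID inhibitors and the myeloid factor gene Cebpa, with gray points for EV, blue for BCR-ABL1 and orange for C-MYC, circles for replicate 1 and triangles for replicate 2. Tcf7l1 is high in BCR-ABL1 only, Tcf7 and Ikzf2 are high in EV only, and Id3 lies at a similar level in all 6 libraries.

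Of the factors of other lineages, Gata2, a factor of progenitors and mast cells, had 20.6 and 19.5 CPM in EV and at most 1.08 CPM elsewhere. Cebpa, the myeloid factor that can turn B cells into macrophages, had 17.4 and 22.0 CPM in EV cells, 2.18 and 2.16 with BCR-ABL1, and 7.68 and 13.5 with C-MYC. Cebpb was lower in BCR-ABL1 than in EV (log2 fold change -2.73, SE 0.33) and than in C-MYC. Cebpb did not pass in C-MYC against EV (-0.53, adjusted p = 0.193, edgeR). The myeloid marker sum given above was lower in C-MYC than in EV, and its relation to Cebpb was not tested. Notch1, which directs progenitors to the T lineage, followed another pattern, with 122 and 113 CPM in EV cells, 155 and 88.2 with BCR-ABL1, and 49.5 and 48.8 with C-MYC. It was lower in C-MYC than in EV (-1.26, SE 0.24) and than in BCR-ABL1, and its EV and BCR-ABL1 libraries overlapped. Prdm1, which encodes the plasma cell factor BLIMP1 and is repressed by Bach2, was low everywhere and lower in BCR-ABL1 than in EV (-1.72, SE 0.32, adjusted p = 0.0108, edgeR) and did not pass in C-MYC (-0.88, adjusted p = 0.0505, or 0.0383 with a replicate block, edgeR).

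Other regulators of B cell development, 23 genes that were all tested, had 8 lower and 1 higher in C-MYC against EV and 2 lower and 0 higher in BCR-ABL1 against EV. Of all genes, 24.5% were lower and 18.6% higher in C-MYC and 12.0% and 5.08% in BCR-ABL1. With C-MYC, 8 were lower with DESeq2, 7 with limma and 11 with a replicate block, and 1, 1 and 2 were higher. The block added Fli1, Bcl11a and Sox4 as lower and Nr4a1 as higher. In BCR-ABL1 against EV, 5 were lower and 2 higher at an unadjusted p under 0.05 in edgeR, 4 and 0 with DESeq2, 1 and 0 with limma, and 6 and 1 with a replicate block (Klf2, Klf3, Zeb2 and Nr4a1 lower and Cbfb higher added). The medians of the log2 fold changes were -0.30 and -0.11. In C-MYC, Klf3 (log2 fold change -1.71), Klf2 (-1.40) and Pou2f2 (-1.38) were lower and Gfi1 was higher (1.67), with 17.9 and 20.2 CPM in C-MYC against 8.60 and 3.43 in EV. Pou2f2, which encodes OCT2, and Gfi1b were the 2 genes that were lower in BCR-ABL1. Between BCR-ABL1 and C-MYC, 2 of the 23 were higher in BCR-ABL1 and 2 were lower, beside 11.9% and 11.5% of all genes. DESeq2 called 3 and 2, limma 0 and 1, and a replicate block 7 and 2 (Elf1, Fli1, Myb, Pou2af1 and Klf3 higher added). Erg (0.67, SE 0.10) and Runx1 (0.53, SE 0.13), both needed early in the lineage, were higher in BCR-ABL1 than in C-MYC, and Nr4a1 (-1.85) and Gfi1 (-1.42) were lower. By limma, Erg and Runx1 did not pass.

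Known targets of the 10 factors, a list of 22 genes that were all tested, were lower in C-MYC in most cases. The list pools genes that the factors activate with genes that they repress, among them Csf1r, Flt3 and Hmox1. Its counts and medians were not split by this and so do not measure a response to the factors. In C-MYC against EV, 16 of 22 were lower and 0 were higher, beside 24.5% and 18.6% of all genes. At an unadjusted p under 0.05 and with DESeq2, 1 (Hmox1) was higher, and 0 with limma. With a replicate block, 18 were lower (Igll1 and Flt3 added) and Hmox1 was higher. In BCR-ABL1 against EV, 7 were lower and 1 was higher, beside 12.0% and 5.08% of all genes, with DESeq2 7 and 2, with limma 6 and 0, and with a replicate block 8 (Cxcr4 added) and 3 (Axin2 and Flt3 added). Between BCR-ABL1 and C-MYC, 14 were higher in BCR-ABL1 and 3 were lower, beside 11.9% and 11.5% of all genes. DESeq2 called 14 and 4, limma 13 and 2, and a replicate block 16 (Cd79b and Cxcr4 added) and 4 (Hmox1 added). The median log2 fold changes of the list were -0.82, -0.07 and 0.67. The targets share genes with the B precursor markers above, among them Igll1 and Cd79b, so the counts of both lists are not independent.

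Targets of Foxo1 included the widest difference of the 22 in C-MYC against EV. Rag1, which encodes a subunit of the recombinase that joins immunoglobulin gene segments, had 71.1 and 58.9 CPM in EV cells, 37.3 and 38.9 with BCR-ABL1, and 5.98 and 8.22 with C-MYC. The 3 conditions did not overlap, and Rag1 was 9.14-fold lower in C-MYC than in EV (log2 fold change -3.19, SE 0.19, adjusted p = 0.000162, edgeR) and 1.70-fold lower in BCR-ABL1. Rag2, the partner subunit, had 14.0 and 11.2 CPM in EV cells, 13.1 and 11.3 with BCR-ABL1, and 3.22 and 3.95 with C-MYC, and was lower in C-MYC only (-1.81, SE 0.23). Il7r, the IL-7 receptor chain, was lower in both conditions, with log2 fold changes of -1.82 with BCR-ABL1 and -1.61 with C-MYC. Foxo1 passed in C-MYC alone, and a link between the levels of Foxo1 and Il7r was not tested.

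Targets of Ebf1 and Pax5 include genes of the pre-B cell receptor. Vpreb1, a surrogate light chain gene, had 835 and 651 CPM in EV cells, 792 and 838 with BCR-ABL1, and 419 and 433 with C-MYC. Its C-MYC libraries were low and apart from the other 4, with a log2 fold change against EV of -0.80 (SE 0.13). Vpreb2, Vpreb3, Cd79a and Blnk were likewise lower in C-MYC than in EV and than in BCR-ABL1, and did not pass in BCR-ABL1 against EV. Cd79a, for the signaling chain Igα, had log2 fold changes of -0.84 in C-MYC and 0.28 (95% interval -0.07 to 0.63) in BCR-ABL1. Cd79b was lower in both (-1.05 and -0.58).

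Other targets were lower in BCR-ABL1. Cd72, at 82.5 and 97.6 CPM in EV cells, 33.5 and 30.8 with BCR-ABL1, and 70.3 and 74.3 with C-MYC, was lowest in BCR-ABL1 without overlap (log2 fold change against EV -1.49, SE 0.13). Cd22, an inhibitory receptor gene, was lower in both but further in BCR-ABL1, with -1.37 against -0.46 in C-MYC and a direct difference of -0.91 (SE 0.16, adjusted p = 0.0069, edgeR). Dntt, for the polymerase that adds nucleotides at V(D)J junctions, was the 1 target that was higher in BCR-ABL1 than in EV (0.37, SE 0.10, adjusted p = 0.0427, edgeR). It did not pass under 9 of 14 alternatives, among them limma on log2(FPKM + 1) (adjusted p = 0.103) and the fits without EV replicate 1 (0.0981), BCR-ABL1 replicate 1 (0.203) or 2 (0.246), or C-MYC replicate 1 (0.0617) or 2 (0.0618, edgeR). Among genes that Pax5 represses, Csf1r, which is also a macrophage gene, was lower in BCR-ABL1 (-3.32) and in C-MYC (-1.42) than in EV. Flt3 was higher in BCR-ABL1 than in C-MYC (2.62, SE 0.49) at no more than 9.58 CPM. Against EV, Flt3 did not pass without a replicate block in edgeR. With the block it was higher in BCR-ABL1 (1.51, adjusted p = 0.00315) and lower in C-MYC (-1.08, adjusted p = 0.013, edgeR). Hmox1, which BACH proteins repress, did not pass in C-MYC against EV (1.01, adjusted p = 0.0515, or 0.000772 with a replicate block, edgeR). Axin2, a target of LEF and TCF factors, was lower in C-MYC (-0.78, SE 0.22) and 1.38 higher on the log2 scale in BCR-ABL1 than in C-MYC.

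**Figure D5:**
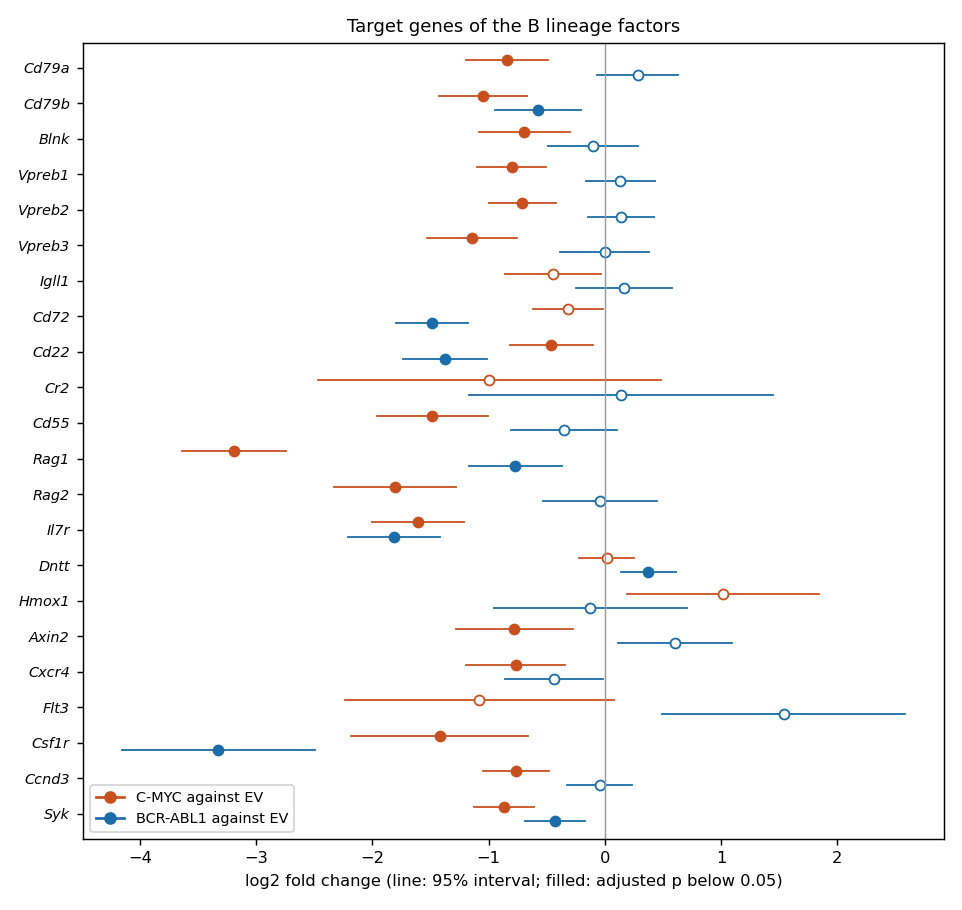
The log2 fold change (horizontal axis) of the 22 target genes in C-MYC against EV (orange) and BCR-ABL1 against EV (blue), with lines for the 95% interval and filled points where the adjusted p was below 0.05. Of the orange points 16 are filled and below 0, of the blue points 7 are filled below 0 and 1 (Dntt) above, and Rag1 lies farthest below 0 in C-MYC.

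The pattern of Spib over the 6 libraries, as log2 CPM, was most like that of Dbnl (Pearson's r = 0.997), Pde4a (0.997) and Mmp14 (0.996), and among the other 9 factors like that of Ikzf3 (0.945). These values describe 6 libraries that share conditions. Dbnl, Pde4a and Mmp14 were picked as the highest among all genes tested, so the directions given next follow from that choice. The best match of each other factor was also high, from 0.983 (Tcf3 with Nfia) to 0.999 (Ebf1 with Usp11). Dbnl had 195 and 200.05 CPM in EV, 158 in both BCR-ABL1 libraries, and 139 and 129.8 in C-MYC. Mmp14, which encodes a membrane-bound protease, was lower than in EV with both vectors, with log2 fold changes of -1.38 with BCR-ABL1 and -2.03 with C-MYC. Between libraries that carry the same replicate number, Ikzf1, Ikzf3, Foxo1, Lef1 and Irf4 were lower in replicate 2 than in replicate 1 in all 3 conditions and Bach2 was higher in all 3. The same holds in one direction or the other for 43.3% of all genes tested.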

How the data were processed

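RNA-seq of 6 libraries was analysed, and 15 ChIP-seq samples were not analysed here. The authors used STAR v2.5.0 to align poly(A) reads to the GRCm38 (mm10) genome and deposited raw counts per gene symbol, without normalization. The deposited FPKM values were calculated by the authors with StringTie v1.3.0. The counting program and its use of strand are not given in the sources used here.

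Counts of all 6 libraries were fitted in edgeR 4.0.16 (R 4.3.3) with filterByExpr, TMM scaling and quasi-likelihood tests, and p-values were adjusted over 12786 genes (Benjamini-Hochberg). SEs are the log2 fold change divided by the square root of F, and 95% intervals are unadjusted. The common biological coefficient of variation was 0.151, so replicate spread, not depth, limited precision, except for genes with few counts, such as Tcf7l1 in C-MYC. Exon lengths were unions of GENCODE exons on GRCm38. DESeq2 1.42.0 and limma 3.58.1 were alternatives. The fit was tested on simulated data. The labels give the conditions the same 2 replicate numbers without saying what they share. Deviations of same-numbered libraries correlated at 0.27 (EV and BCR-ABL1), 0.24 (EV and C-MYC) and 0.20 (BCR-ABL1 and C-MYC) across 12786 genes, which are not independent, so fits with the replicate number as a block are given beside the results whose calls they change.

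The members and the lists were chosen with earlier results of these data known. All members were named. Of each list, relatives and inhibitors tied to a member and up to 4 called genes with the largest change per comparison were named. An exception is the 1 relative that was lower in BCR-ABL1 than in C-MYC, which is not identified above. Further targets, such as Vpreb1, Cd79a, Cd22, Dntt, Hmox1 and Axin2, and statements that a listed gene did not pass, were chosen after their values were seen. Some genes of the target and marker lists are not reported here and are left out of the list counts and sums.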

Additional observations from a re-analysis of the deposited data

How the results depend on the processing

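Of 420 values of the 10 genes under 14 alternatives in 3 comparisons, 359 kept their direction and their side of the threshold, 11 no longer passed, 31 newly passed and 19 changed sign, all of the latter in genes that passed neither in the reported fit nor under that alternative. Ebf1, Ikzf3, Bach2 and Spib were lower in C-MYC than in EV under all 14. In C-MYC against EV, between 4 and 7 of the 10 genes and between 3329 and 6077 of all genes passed with 1 library left out. In BCR-ABL1 against EV, 3 of the 10 passed with DESeq2 and without a filter on low counts and 2 with upper-quartile scaling or with only the 4 libraries compared, limma on log2(FPKM + 0.1) and log2(FPKM + 1) called 1043 and 1055 of all genes against 2180 in the reported fit, and leaving out 1 library gave between 0 and 4 of the 10 and between 665 and 2729 of all genes. In BCR-ABL1 against C-MYC, 5 of the 10 passed without the filter and 6 with only the 4 libraries compared, which called 4538 of all genes against 2991, and leaving out 1 library gave between 1 and 6 of the 10 and between 618 and 4519 of all genes. A lone replicate was then assumed to vary like the other groups. The reported fit used the same spread per gene for all conditions, although replicates were not equally far apart. Between replicates, chi-square per degree of freedom was 45.6 (EV), 20.3 (C-MYC) and 10.7 (BCR-ABL1). The spread used for BCR-ABL1 against C-MYC thus drew on the EV libraries too. Genes that did not pass there are not shown to be equal. The cause of the shifts in these counts was not tested.

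The changes of sign were as follows. In C-MYC against EV, Irf4 was at 0.0055 with DESeq2 and 0.0074 with the 4 libraries compared, and without 1 library Irf4 ranged from -0.37 to 0.37 and Tcf3 from -0.23 to 0.029. In BCR-ABL1 against EV, Foxo1 was at -0.012 by limma with either pseudocount and -0.0082 with upper-quartile scaling, and without 1 library Foxo1 ranged from -0.24 to 0.40, Ikzf1 from -0.025 to 0.26 and Pax5 from -0.58 to 0.036. In BCR-ABL1 against C-MYC, Tcf3 was at -0.0092 with DESeq2, -0.0080 with DESeq2's size factors in edgeR, -0.024 with upper-quartile scaling, and -0.093 and -0.092 by limma with pseudocounts of 0.1 and 1, and it ranged from -0.11 to 0.15 without 1 library.

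With a replicate block, 8, 4 and 7 of the 10 genes passed in C-MYC against EV, BCR-ABL1 against EV and BCR-ABL1 against C-MYC, and no gene of the lists lost its call. By FPKM, 4 of the 10 genes (Tcf3, Irf4, Ikzf3 and Bach2) were above the 90th percentile of level in all conditions, and 3 without C-MYC replicate 1. By counts per kilobase 4 were as well, but these were Tcf3, Irf4, Ikzf1 and Spib.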
